A study of Homo sapiens with 8 samples.

Results

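Elastic fibre genes were followed here in human intestinal epithelial cells, hIECs in the study's naming, grown in 2D and derived from H9, a widely used established line of human embryonic stem cells. The group is 10 genes of the 60558 in the expression files, taken by symbol: ELN, FBN1, FBN2, MFAP4, FBLN1, FBLN2, FBLN5, EMILIN1, LOX and LOXL1. Normal hIECs received neither agent. Inflamed hIECs were made with 2 cytokines, IFNγ at 50 ng/ml and TNFα at 50 ng/ml, over 10 days. PM10, airborne particulate matter, was added at 100 μg/ml during the last 7 of these days, to normal or to inflamed cultures. Each of the 4 groups had 2 RNA-seq libraries, and all of them came from the single H9 line. The sample records give 10 days of treatment for every group.

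An elastic fibre has a core of cross-linked elastin laid down on a scaffold of fibrillin microfibrils. Fibulins and emilin help to place tropoelastin, the soluble precursor, on the microfibrils, and lysyl oxidases link the deposited chains covalently. In the gut wall these genes are known mainly from fibroblasts, smooth muscle cells and vessels, which make the extracellular matrix beneath the epithelium. FPKM, the number of fragments scaled by transcript length and by library size, is used throughout, so levels of different genes can be set side by side.

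Most of the intestinal epithelial markers were not detected in these libraries. The study itself reports CDX2, LYZ, MUC2, CHGA and VIL1 in its 2D hIECs by quantitative PCR and immunostaining. CDX2, VIL1, LYZ, MUC2, CHGA, FABP2 and SI, 7 of the 9 intestinal markers examined, were listed at 0 in all 8 libraries. The other 2, the progenitor and stem cell genes SOX9 (3.66 to 14.97 FPKM) and LGR5 (2.01 to 8.28 FPKM), were above 1 FPKM in every library. CLDN3 and CLDN7 were at 0 in every library too, CDH1 was above 0 in 1 library only and EPCAM did not exceed 0.622 FPKM, whereas the keratins KRT8 (185 to 383 FPKM) and KRT18 (100.1 to 266 FPKM) were well expressed. All 10 mesenchymal markers were above 1 FPKM, with VIM, which encodes the intermediate filament vimentin, at 718 to 973 FPKM. Of 5 smooth muscle markers, ACTA2 (532 to 1048 FPKM), TAGLN (698 to 1389 FPKM) and CNN1 (56.9 to 77.3 FPKM) were well expressed. DES stood at 0.462 to 1.74 FPKM and MYH11 was at 0. All 4 endothelial markers were at 0. Of 4 neuronal markers, STMN2 (52.5 to 131 FPKM) and TUBB3 (47.6 to 66.6 FPKM) were well expressed, DCX stood at 0.234 to 2.79 FPKM and ELAVL4 was at 0. The lowest value above 0 was 0.164 to 0.228 FPKM per library, so a gene listed at 0 may still have had transcripts below that level. Since RNA was taken from whole cultures, fewer cells of a type and less RNA per cell cannot be told apart in any result here.

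Each of the 10 genes was above 0 in all 8 libraries and passed the filter of at least 1 FPKM in at least 2 libraries that left 14206 genes for testing. Only ELN was under 1 FPKM in any library, in both inflamed libraries with PM10. Fold changes are differences of log2(FPKM + 1) from limma, a linear model fitted over all 14206 genes, with p-values adjusted by the Benjamini-Hochberg method. A gene is said to have risen or fallen where the adjusted p-value was under 0.05. Nothing in the records ties the 2 libraries of a group to separate cultures, so the p-values measure the spread between these libraries, which may be technical.

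RefSeq (GRCh38.p14) gave promoter windows, 250 bases before to 50 bases after a transcript start, for 7 of the 10 genes, 11 windows in all. The collection of windows used here held none for ELN, EMILIN1 and MFAP4. Of the 11 windows, 4 are shown, 2 from genes that rose with cytokines (FBN1, LOXL1) and 2 from genes that fell (FBLN2, FBLN5). Capitals mark GCGTG on either strand, the core of the element bound by the aryl hydrocarbon receptor, a sensor of compounds carried by particulate matter. The windows are chr15:48644921-48645220 on the minus strand (FBN1), chr15:73926212-73926511 on the plus strand (LOXL1), chr3:13548875-13549174 on the plus strand (FBLN2) and chr14:91947645-91947944 on the minus strand (FBLN5), each written 5′ to 3′ on the strand of its gene.
FBN1: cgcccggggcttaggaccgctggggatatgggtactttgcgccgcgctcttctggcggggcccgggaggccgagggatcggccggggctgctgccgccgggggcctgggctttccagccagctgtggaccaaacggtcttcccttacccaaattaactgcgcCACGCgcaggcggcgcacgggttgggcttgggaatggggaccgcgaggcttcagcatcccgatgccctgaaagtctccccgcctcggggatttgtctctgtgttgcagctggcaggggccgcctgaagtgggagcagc
LOXL1: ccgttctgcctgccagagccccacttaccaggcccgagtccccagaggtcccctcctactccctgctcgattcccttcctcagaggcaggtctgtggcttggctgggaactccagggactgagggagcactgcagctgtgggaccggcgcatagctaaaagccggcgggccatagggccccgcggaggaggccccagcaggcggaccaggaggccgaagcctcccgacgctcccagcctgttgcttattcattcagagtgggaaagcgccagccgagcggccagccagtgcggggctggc
FBLN2: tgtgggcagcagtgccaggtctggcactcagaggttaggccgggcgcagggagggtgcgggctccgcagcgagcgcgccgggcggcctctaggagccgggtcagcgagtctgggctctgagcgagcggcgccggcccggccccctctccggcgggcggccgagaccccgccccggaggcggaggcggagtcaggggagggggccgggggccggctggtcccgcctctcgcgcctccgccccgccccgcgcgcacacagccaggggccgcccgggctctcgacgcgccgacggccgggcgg
FBLN5: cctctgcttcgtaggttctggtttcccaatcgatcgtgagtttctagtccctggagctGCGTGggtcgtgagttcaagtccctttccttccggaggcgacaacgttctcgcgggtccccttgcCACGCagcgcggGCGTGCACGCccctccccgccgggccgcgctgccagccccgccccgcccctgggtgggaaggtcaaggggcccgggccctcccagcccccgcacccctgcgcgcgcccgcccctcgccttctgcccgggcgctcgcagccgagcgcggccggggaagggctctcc

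The FBN1 window held 1 match to GCGTG and the FBLN5 window 4, of which a pair abut each other on opposite strands, and the other 2 windows held none. The second FBLN2 window, not shown, held 1. Over the 11 windows of the elastic fibre genes, 6 held the motif, of which 2 are overlapping LOX windows that share 1 match, so that 5 of 10 separate windows held it, against 36.54% of all 35116 windows. TTCNNNGAA, the element bound by STAT dimers downstream of IFNγ, was in none of the 11 and in 7.66% of all windows. TATAAA was in 1 of the 11, the second FBLN5 window, and in 11.53% of all. Both strands were searched for each motif. These matches are letters in a window, not measured binding.

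With cytokines the elastic fibre genes moved in both directions. In inflamed against normal hIECs without PM10, all 10 genes were called: elastin, FBN2, MFAP4 and the 3 fibulins fell, and FBN1, EMILIN1 and both lysyl oxidases rose. Cytokines moved much of the transcriptome, since 56.2% of all tested genes were called in this comparison, 30.3% lower and 25.9% higher. A change of at least 2-fold that was also called was found for 4 of the 10 (ELN, MFAP4, FBLN2 and LOXL1) and for 9.18% of all genes. The median change of the 10 genes was -0.47, beside -0.03 over all genes tested.

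**Figure D1:**
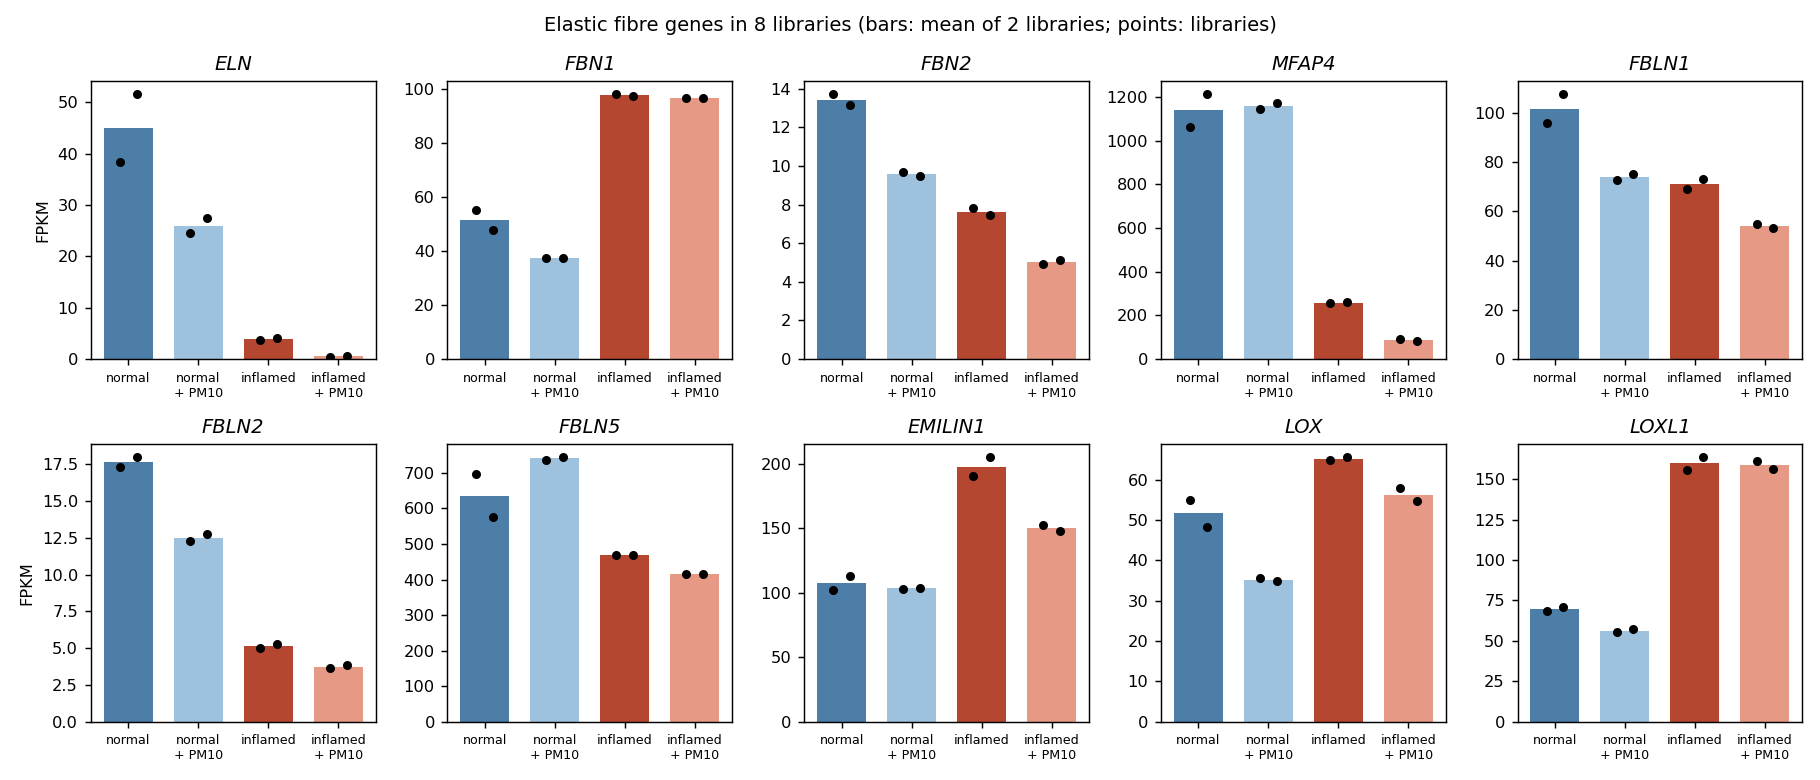
FPKM of each elastic fibre gene (vertical axis, its own linear scale from 0 in each panel) in the 4 groups (horizontal axis). Bars are means of 2 libraries and points are the libraries. ELN and MFAP4 sit far lower in inflamed than in normal hIECs and lower again with PM10, whereas FBN1, EMILIN1 and LOXL1 sit higher in inflamed hIECs.

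ELN (chr7:74027789-74069907, plus strand, GRCh38) encodes tropoelastin, the precursor of the elastin core. Its level was 38.4 and 51.6 FPKM in normal hIECs, 24.6 and 27.4 in normal hIECs with PM10, 3.80 and 4.05 in inflamed hIECs, and 0.441 and 0.629 in inflamed hIECs with PM10. No groups overlapped, and each step of treatment gave a lower level. The mean in inflamed hIECs was 11.5 times lower than in normal hIECs, a log2 change of -3.21 (SE 0.14, limma adjusted p = 1.67e-06). Under PM10 the means differed by 48.6 times, and the fitted log2 change was -4.14 (SE 0.14, limma adjusted p = 3.71e-07), smaller than that ratio because 1 is added to values that are themselves under 1 FPKM. With a pseudocount of 0.1 it was -5.38. The 2 lowest values were 2.09 and 2.97 times the lowest value above 0 of any gene in their libraries, so that the last ratio rests on values near the lower end of what was measured.

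PM10 lowered ELN in both settings. The log2 change was -0.76 (SE 0.14, limma adjusted p = 0.0201) in normal hIECs and -1.68 (SE 0.14, limma adjusted p = 0.000634) in inflamed hIECs, or 1.73 and 7.34 times lower in the means. With a pseudocount of 0.1 in place of 1 the change in inflamed hIECs was -2.68, since the values there are near or under 1 FPKM. The reference annotation (GENCODE release 44) places the antisense gene ELN-AS1 over 165 exonic bases of ELN, and that gene was at 0 in all 8 libraries.

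The 2 fibrillins, the large glycoproteins that polymerise into microfibrils, went opposite ways with cytokines. FBN1 (chr15:48408313-48645721, minus strand) had 55.0 and 47.9 FPKM in normal hIECs, 37.3 and 37.4 with PM10, 97.9 and 97.2 in inflamed hIECs, and 96.5 in both inflamed libraries with PM10. Inflamed libraries were thus above all normal ones, by 0.91 (SE 0.065, limma adjusted p = 2.4e-05) without PM10 and by 1.35 (SE 0.065, limma adjusted p = 2.55e-06) with it on the log2 scale. FBN2 (chr5:128257909-128659185, minus strand), the fibrillin best known from development, had 13.7 and 13.2 FPKM in normal hIECs, 9.68 and 9.50 with PM10, 7.79 and 7.45 in inflamed hIECs, and 4.94 and 5.12 with both treatments. Its groups stood in that order without overlap, and it fell with cytokines by 0.74 without PM10 (SE 0.058, limma adjusted p = 3.56e-05) and by 0.81 with it (SE 0.058, limma adjusted p = 1.59e-05) on the log2 scale.

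MFAP4 (chr17:19383442-19387190, minus strand) encodes a glycoprotein that binds microfibrils and elastin. It was the most abundant of the 10 in normal hIECs, at 1064 and 1212 FPKM, and PM10 alone left it at 1143 and 1173. In inflamed hIECs it was at 257 and 259.9 FPKM, and in inflamed hIECs with PM10 at 92.5 and 83.9. The normal libraries with and without PM10 interleaved, whereas the inflamed libraries lay below them and those with PM10 lower again. The cytokine change was -2.13 (SE 0.073, limma adjusted p = 6.05e-07) without PM10 and -3.70 (SE 0.073, limma adjusted p = 2.89e-08) with it, or 4.40 and 13.1 times lower in the means. MAPK7 overlaps 103 exonic bases of MFAP4 on the other strand, and in these libraries without strand information its reads over those bases cannot be told apart. MAPK7 stood at 8.25 to 11.7 FPKM.

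All 3 fibulins, calcium-binding glycoproteins of the matrix, fell with cytokines, to different extents. FBLN2 (chr3:13549125-13638422, plus strand) had 17.3 and 18.0 FPKM in normal hIECs, 12.3 and 12.7 with PM10, 5.02 and 5.28 in inflamed hIECs, and 3.64 and 3.83 with both. Its cytokine change was -1.60 (SE 0.060, limma adjusted p = 8.93e-07) without PM10 and -1.51 (SE 0.060, limma adjusted p = 8.75e-07) with it. The 4 groups did not overlap.

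FBLN1 (chr22:45502238-45601135, plus strand), which binds fibronectin and elastic fibres, had 95.9 and 108 FPKM in normal hIECs, 72.9 and 75.3 with PM10, 69.3 and 73.2 in inflamed hIECs, and 54.8 and 53.3 with both. PM10 alone and cytokines alone thus left it at overlapping levels. Its cytokine change was -0.51 (SE 0.064, limma adjusted p = 0.000417) without PM10. FBLN5 (chr14:91869411-91947987, minus strand), which binds tropoelastin, LOXL1 and cell surface integrins, was second in abundance in normal hIECs at 696 and 575 FPKM, with 738 and 745 under PM10, 469 and 470.0 in inflamed hIECs, and 414 and 417 with both. The 2 normal libraries were farther apart than any other pair for this gene. It fell with cytokines by 0.43 without PM10 (SE 0.082, limma adjusted p = 0.00327) and by 0.83 with it (SE 0.082, limma adjusted p = 8.55e-05) on the log2 scale. The first of these calls was lost under quantile normalization, with a change of -0.16 (limma adjusted p = 0.228).

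EMILIN1 (chr2:27078615-27086403, plus strand), a glycoprotein found where elastin meets microfibrils, rose with cytokines. It had 102 and 113 FPKM in normal hIECs, 103 and 104 with PM10, 190.3 and 205 in inflamed hIECs, and 153 and 147 with both. Inflamed libraries were above all normal ones, and those with PM10 lay between. The cytokine change was 0.87 (SE 0.063, limma adjusted p = 2.6e-05) without PM10 and 0.53 (SE 0.063, limma adjusted p = 0.000234) with it.

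The lysyl oxidases, copper enzymes that cross-link elastin and collagen, both rose with cytokines. LOXL1 (chr15:73925989-73952137, plus strand), which is tied to elastin deposition, had 68.3 and 71.2 FPKM in normal hIECs, 55.2 and 57.0 with PM10, 156 and 164 in inflamed hIECs, and 161 and 156 with both. The inflamed libraries were above 2 times the level of every normal one, and the cytokine change was 1.18 (SE 0.049, limma adjusted p = 1.44e-06) without PM10 and 1.48 (SE 0.049, limma adjusted p = 3.77e-07) with it. LOXL1-AS1, on the other strand, overlaps 335 exonic bases of LOXL1, 9.21% of its exonic length, and stood at 4.96 to 8.25 FPKM.

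LOX (chr5:122063195-122078413, minus strand), the founding enzyme of the family, moved less. It had 54.9 and 48.3 FPKM in normal hIECs, 35.7 and 34.8 with PM10, 64.8 and 65.6 in inflamed hIECs, and 57.9 and 54.6 with both. The inflamed libraries with PM10 overlapped those of untreated normal hIECs. Its cytokine change was 0.33 (SE 0.067, limma adjusted p = 0.00422) without PM10 and 0.66 (SE 0.067, limma adjusted p = 0.000103) with it. SRFBP1 overlaps 138 exonic bases of LOX on the other strand and was at 1.95 to 3.90 FPKM.

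The cytokine comparison under PM10 uses no library of the one without PM10, and its own calls had the same direction for each of the 10 genes: 6 lower and 4 higher. Both comparisons share an estimate of the spread. With only the 2 groups compared in each fit, all 10 genes were again called in both. Over all genes, 65.4% were called under PM10, 39.6% lower and 25.8% higher, and 27.4% of genes were called lower in both comparisons and 20.9% higher in both. ELN, MFAP4, FBLN2, LOXL1 and FBN1 changed at least 2-fold under PM10, 5 of 10, beside 12.9% of all genes. The median change of the 10 genes was -0.63, beside -0.11 over all genes.

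**Figure D2:**
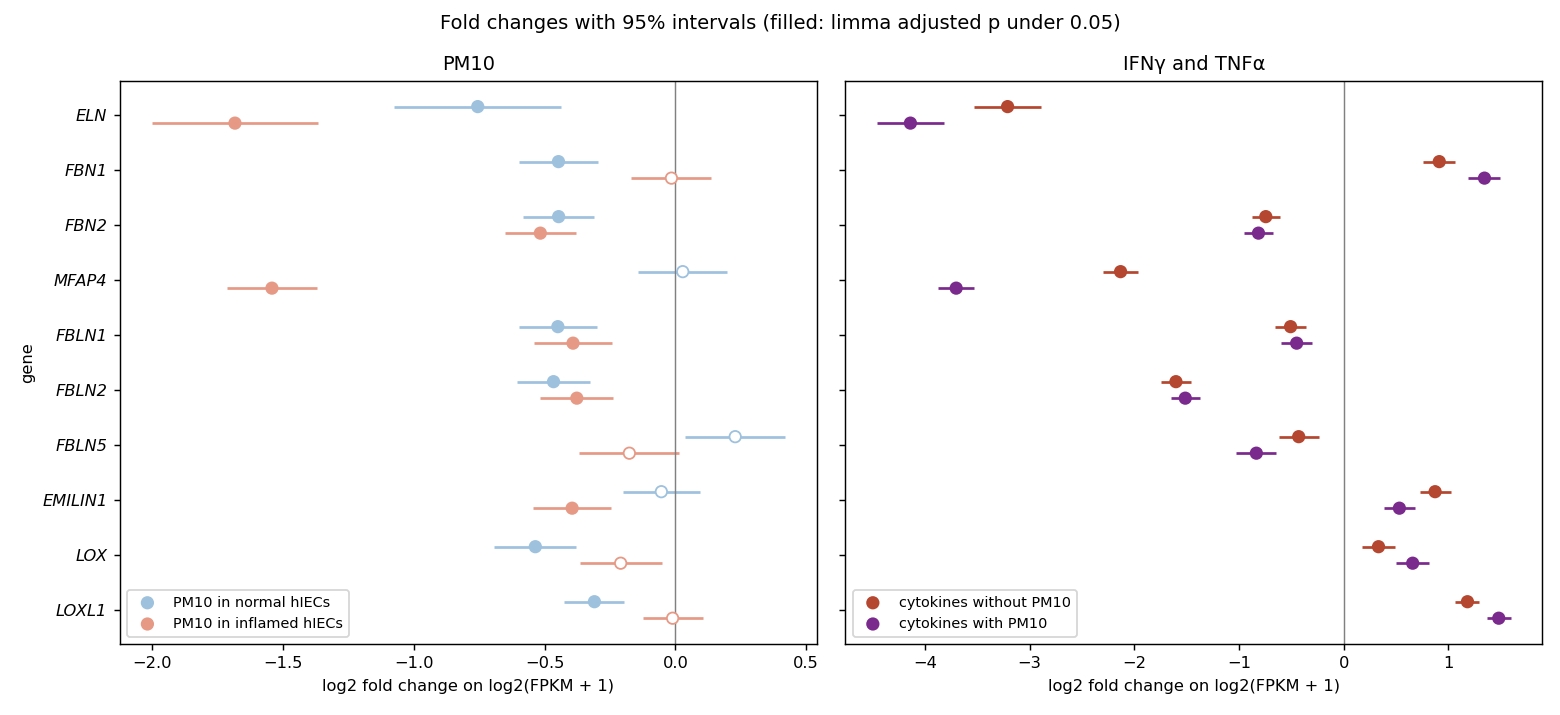
Log2 fold changes of the 10 genes (horizontal axis, log2(FPKM + 1) scale) for PM10 in normal and in inflamed hIECs (left) and for cytokines without and with PM10 (right). Points are limma estimates, bars are 95% intervals, and filled points passed an adjusted p-value of 0.05. All 20 cytokine points are filled, with 6 genes to the left and 4 to the right in both comparisons, whereas PM10 moved ELN and MFAP4 farthest in inflamed hIECs.

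With PM10 every elastic fibre gene that was called was lower. In normal hIECs PM10 lowered 7 of the 10 (ELN, FBN1, FBN2, FBLN1, FBLN2, LOX and LOXL1), by 0.31 to 0.76 on the log2 scale, where 9.23% of all genes were called and 3.72% were called lower. limma called 0 of the 10 higher, beside 5.51% of all genes, and 1, FBLN5, was higher at an unadjusted p-value under 0.05. The median of the 10 was -0.45, beside 0.06 over all genes. LOX changed by -0.54 (SE 0.067, limma adjusted p = 0.00647), FBLN2 by -0.47 (SE 0.060, limma adjusted p = 0.00689), FBN2 by -0.45 (SE 0.058, limma adjusted p = 0.00711) and LOXL1 by -0.31 (SE 0.049, limma adjusted p = 0.0137). None of the 7 reached 2-fold, as 0.345% of all genes did, and in each of the 7 both PM10 libraries were below both untreated ones, a separation found in this direction for 19.2% of all genes.

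The other 3 genes were not called in normal hIECs. FBLN5 was 0.23 higher (95% interval 0.037 to 0.42, limma adjusted p = 0.118), MFAP4 differed by 0.03 (95% interval -0.14 to 0.20) and EMILIN1 by -0.05 (95% interval -0.20 to 0.094). The 7 calls depended on the spread shared with the inflamed groups: with the 4 normal libraries alone in the fit 0 of the 10 passed, although 7 were lower at an unadjusted p-value under 0.05, and only 23 genes passed in all. Leaving out either PM10 library left 1 of the 7 called, LOX without the first and FBLN2 without the second, and all 7 stayed lower. Without the first normal library FBLN5 was called higher, by 0.37 (limma adjusted p = 0.00213).

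In inflamed hIECs PM10 lowered 6 of the 10: ELN, MFAP4, FBN2, EMILIN1, FBLN1 and FBLN2, where 15.2% of all genes were called and 9.02% were called lower. limma called 0 of the 10 higher, beside 6.22% of all genes, with 0 higher at an unadjusted p-value under 0.05. MFAP4 fell by 1.54 (SE 0.073, limma adjusted p = 0.000123), 2.93 times in the means, and ELN as given above, and these were the only ones past 2-fold, as were 0.669% of all genes. FBN2 changed by -0.52 (SE 0.058, limma adjusted p = 0.00204), EMILIN1 by -0.39 (SE 0.063, limma adjusted p = 0.00818), FBLN1 by -0.39 (SE 0.064, limma adjusted p = 0.00894) and FBLN2 by -0.38 (SE 0.060, limma adjusted p = 0.00789). The median of the 10 was -0.38, beside -0.01 over all genes. Without the second inflamed library, 3 of the 6 remained called, and EMILIN1, FBLN1 and FBLN2 had adjusted p-values of 0.0623, 0.0668 and 0.0605.

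FBN1 and LOXL1 did not move detectably with PM10 in inflamed hIECs, with changes of -0.02 (95% interval -0.17 to 0.14) and -0.01 (95% interval -0.13 to 0.10). LOX differed by -0.21 (limma adjusted p = 0.0764) and FBLN5 by -0.18 (limma adjusted p = 0.185). ELN, FBN2, FBLN1 and FBLN2, 4 of the 10, were called lower with PM10 in both settings, beside 1.15% of all genes. Called higher in both were 0 of the 10, beside 1.34%. The settings share no library, but their calls rest on a shared estimate of the spread, and those in normal hIECs depended on it.

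The interaction asked whether the PM10 effect differed between inflamed and normal hIECs. It was called for 4 of the 10, 2 lower and 2 higher, beside 6.6% of all genes, 4.48% lower and 2.11% higher. With a pseudocount of 1, MFAP4 alone also passed 2-fold, beside 0.88% of all genes. It had -1.57 (SE 0.10, limma adjusted p = 0.0011): PM10 left it within the interval given above in normal hIECs and lowered it in inflamed hIECs. ELN had -0.93 (SE 0.19, limma adjusted p = 0.0351), a deeper fall in inflamed hIECs. With a pseudocount of 0.1 the interaction of ELN was -1.90 (limma adjusted p = 0.00981) and that of MFAP4 -1.58, so both passed 2-fold and their order turned. FBN1 had 0.43 (SE 0.092, limma adjusted p = 0.0387) and LOXL1 0.30 (SE 0.069, limma adjusted p = 0.0485), both lowered by PM10 in normal hIECs and little different in inflamed hIECs. Over 16 other ways of processing, MFAP4 was called in 16, FBN1 in 8, ELN in 7 and LOXL1 in 6. FBLN5 (-0.40), EMILIN1 (-0.34) and LOX (0.33) were not called, with limma adjusted p-values of 0.0866, 0.0684 and 0.0901. FBN2, FBLN1 and FBLN2 had interactions of -0.07, 0.06 and 0.09, with 95% intervals of -0.26 to 0.12, -0.15 to 0.27 and -0.11 to 0.29.

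Because FPKM is scaled by transcript length, the order of the genes could be read within each group. In normal hIECs MFAP4 and FBLN5 led, followed by EMILIN1 and FBLN1 at overlapping levels, LOXL1, then LOX, FBN1 and ELN at overlapping levels, FBLN2 and FBN2. With PM10 alone the order was the same except that FBN1 passed LOX. In inflamed hIECs FBLN5 led, with MFAP4, EMILIN1, LOXL1, FBN1, FBLN1, LOX, FBN2 and FBLN2 after it and ELN last. In inflamed hIECs with PM10, LOXL1, EMILIN1 and FBN1 stood above MFAP4, LOX and FBLN1 overlapped, and ELN was again last. The summed FPKM of the 10 genes was 2205 to 2276 in the 4 normal libraries, 1321 and 1351 in inflamed hIECs, and 1039 and 1018 with both treatments.

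The makeup of that sum changed as well. MFAP4 made up 48.2% to 53.7% of it in the 4 normal libraries, 19.5% and 19.2% in inflamed hIECs, and 8.91% and 8.24% with both treatments. LOXL1 rose from 2.47% to 3.15% in the normal libraries to 11.8% and 12.1%, and to 15.5% and 15.3% with both. FBLN5 kept 25.5% to 33.1% in the normal libraries and 34.8% to 40.9% in the inflamed ones. Set against FBN1 in the same library, ELN was at 0.658 to 1.08 times its level in the 4 normal libraries, 0.0388 and 0.0417 times in inflamed hIECs, and 0.00457 and 0.00651 times with both. These shares and ratios show unequal change within a library, whatever the scaling between libraries.

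**Figure D3:**
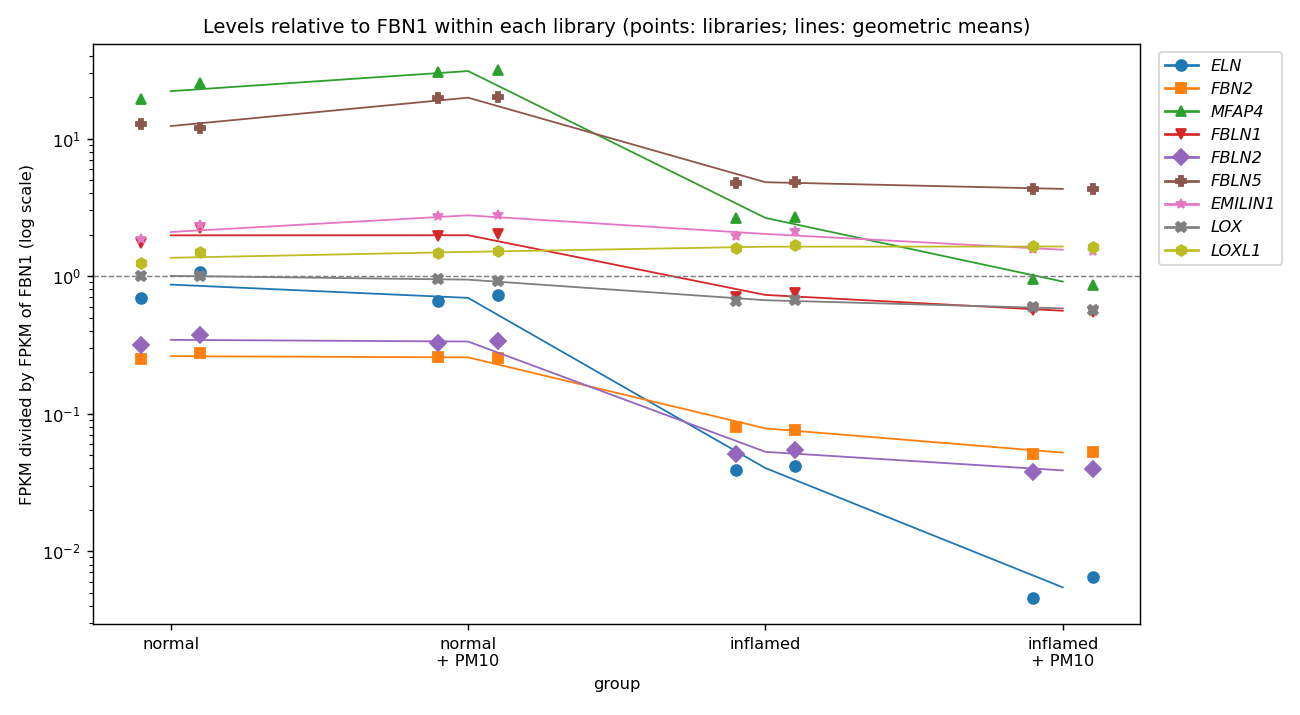
FPKM of 9 elastic fibre genes divided by the FPKM of FBN1 in the same library (vertical axis, log scale) in the 4 groups (horizontal axis). Points are libraries and lines join geometric means of 2 libraries. ELN, MFAP4, FBN2, LOX and the fibulins FBLN1, FBLN2 and FBLN5 drop against FBN1 in inflamed hIECs, although LOX itself rose with cytokines. LOXL1 stays between 1.24 and 1.68 times FBN1 in all 8 libraries.

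Other genes of the elastic fibre system, 63 in 8 lists by role, gave 45 that were tested. Of these, 6 reached 1 FPKM only in normal or only in inflamed libraries (FBLN7, EMILIN3, ADAMTSL3, ADAMTSL5, THSD4 and CTSS), so that the filter admitted them through the groups where they were high. They are given by their values and left out of the counts by list. In the other 39, cytokines raised 18 and lowered 13 without PM10, and raised 19 and lowered 12 with PM10. PM10 raised 6 and lowered 4 of the 39 in normal hIECs, and raised 7 and lowered 8 in inflamed hIECs. Interaction calls among the 39 numbered 6 higher and 7 lower. Over all 45, the 6 set aside included, there were 14. The added call was ADAMTSL3, which was listed at 0 in all 4 normal libraries. The shares of all genes called given above hold for these counts as well. With the 4 normal libraries alone in the fit, limma called 0 of the 45 for PM10, with 14 at an unadjusted p-value under 0.05. Leaving out 1 library took the interaction calls among the 45 to between 2 and 16.

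Microfibril and latent TGF-β binding proteins fell with cytokines in 4 of 5 tested genes. MFAP2, a small microfibril protein, had a mean of 560 ± 3.02 FPKM (SD, n = 2) in normal hIECs, 199.8 ± 3.90 in inflamed hIECs and 119 ± 5.69 with both, and its interaction was -0.59 (limma adjusted p = 0.0067). LTBP1 went from 42.7 to 17.6 FPKM and LTBP4, which aids elastin assembly, from 88.5 to 50.9. LTBP2, a microfibril protein that does not bind latent TGF-β, rose from 11.2 to 50.5 FPKM and stood at 58.2 with both treatments (cytokine change 2.08, limma adjusted p = 9.64e-08).

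Among the relatives of the fibulins and emilin, 3 of 4 fell with PM10 in normal hIECs. EFEMP1, also called fibulin-3, had mean levels of 17.4, 12.3, 8.10 and 4.29 FPKM in untreated normal hIECs, with PM10 alone, with cytokines alone and with both, and was called lower in each PM10 and cytokine comparison. HMCN1, the giant hemicentin, rose with cytokines from 5.37 to 10.9 FPKM. FBLN7 had means of 1.40 FPKM in normal and 0.399 in inflamed hIECs, and EMILIN3 of 1.55 and 0.492, both low levels.

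In the cross-linking list, 3 of 6 rose and 2 fell with cytokines. LOXL4 went from 34.5 ± 3.05 to 109.6 ± 1.62 FPKM (SD, n = 2), a log2 change of 1.64 (limma adjusted p = 1.01e-06), and stood at 126 with both treatments. LOXL3 rose from 13.05 to 24.1 FPKM and LOXL2 from 118 to 152 FPKM, so all 5 lysyl oxidase genes tested were higher with cytokines. PCOLCE, which enhances procollagen processing, fell from 243 to 137 FPKM and then to 105 with PM10 added (PM10 change in inflamed hIECs -0.38, limma adjusted p = 0.0024). Of the microfibril-associated ADAMTS family, 1 of 2 fell with cytokines. ADAMTS10, which binds fibrillin, fell from 19.8 to 8.16 FPKM and stood at 5.14 with both treatments. ADAMTSL3 was listed at 0 in the 4 normal libraries and at means of 1.26 and 0.377 FPKM in the inflamed groups without and with PM10. THSD4 stood at 0.346 to 0.473 FPKM in the 4 normal libraries and 0.948 to 1.12 in the 4 inflamed ones, and ADAMTSL5 at 0.824 to 0.907 and 1.18 to 1.496.

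Proteases able to cut elastin were called with cytokines in each of the 5 genes counted, 3 higher and 2 lower. MMP9, a gelatinase, rose from 5.67 to 195 FPKM, a log2 change of 4.88 (limma adjusted p = 3.29e-09), and was at 10.3 FPKM in normal hIECs with PM10 and 255 with both. CTSS, a lysosomal cysteine protease induced by IFNγ, was at 0 in the 4 normal libraries and averaged 12.5 FPKM in inflamed hIECs and 16.2 with PM10 added. CTSL rose from 41.9 to 65.7 FPKM and CTSK fell from 3.90 to 2.43. With PM10, MMP14 rose in normal hIECs from 170 to 275 FPKM, and MMP2 rose in inflamed hIECs from 59.0 to 91.2 FPKM, and each of the 5 had an interaction call, 1 higher and 4 lower. The inhibitors moved differently from each other. TIMP1 fell with cytokines from 2073 to 1202 FPKM and was at 822 with both, TIMP2 fell from 114 to 90.7, and TIMP3, which binds to the matrix, rose from 16.1 to 51.3 FPKM and, with PM10 alone, to 30.2.

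Genes of the elastin receptor complex and integrins were higher with cytokines in 6 of 8, and limma called 0 lower, with 0 lower at an unadjusted p-value under 0.05. ITGAV rose from 29.6 to 62.5 FPKM, ITGB1 from 249 to 373, ITGB5 from 22.4 to 33.4 and ITGB3 from 4.70 to 6.85. PM10 in inflamed hIECs brought ITGB1 to 461 and ITGB3 to 9.59 FPKM (limma adjusted p = 0.0389 and 0.0218). Of TGF-β ligands and receptors, known inducers of elastin and lysyl oxidase expression, 3 of 5 rose and 1 fell with cytokines. TGFBR2 rose from 9.03 to 36.0 FPKM and to 54.2 with both, TGFB1 rose from 46.2 to 63.5, TGFBR1 from 12.6 to 17.5, and TGFB3 fell from 19.2 to 5.35.

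**Figure D4:**
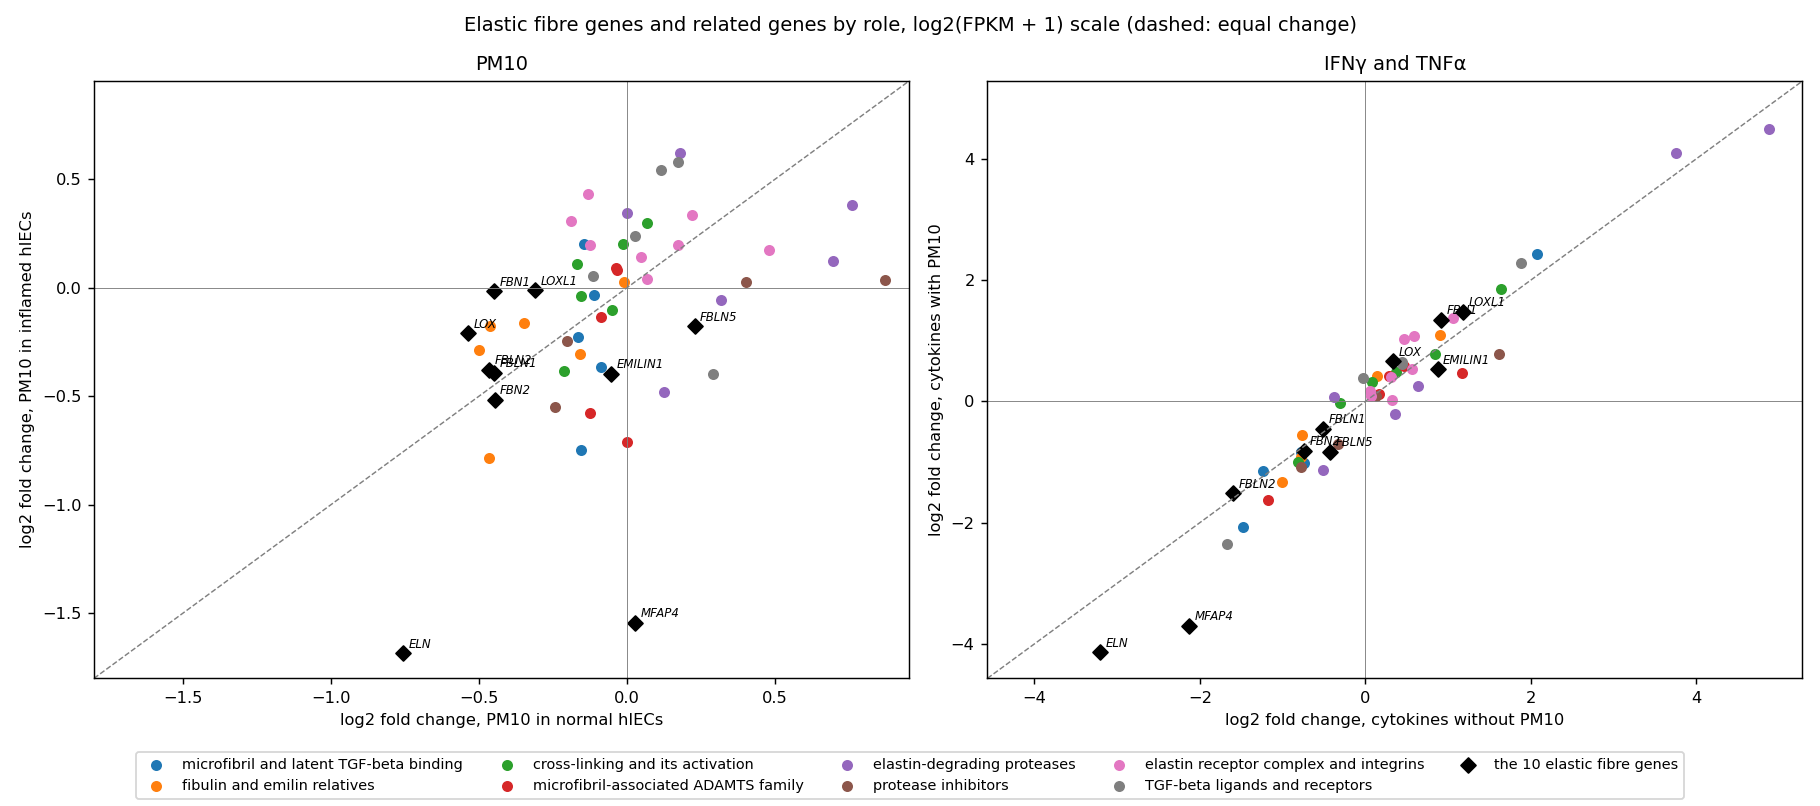
Log2 fold changes of the 10 elastic fibre genes (black diamonds, named) and of 45 related genes coloured by role. The left panel sets PM10 in normal hIECs (horizontal) against PM10 in inflamed hIECs (vertical), and the right panel sets cytokines without PM10 against cytokines with PM10, with a dashed line of equal change. On the left ELN and MFAP4 lie lowest, while on the right MMP9 lies highest and ELN lowest. Of the 45, 6 reached 1 FPKM only in normal or only in inflamed libraries. CTSS, next below MMP9 on the right, is among these and was at 0 in the 4 normal libraries.

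Marker genes of mesenchymal, smooth muscle, epithelial and neuronal cells also differed between groups, beside the elastic fibre genes. The summed level of the 10 mesenchymal markers was 3510 and 3616 FPKM in normal hIECs, 3216 and 3219 with PM10, 3432 and 3469 in inflamed hIECs, and 2749 and 2709 with both. COL3A1 fell from a range of 1014 to 1035 FPKM in the 4 normal libraries to 706 and 709 in inflamed hIECs and to 475 and 466 with both, whereas LUM rose from 38.9 to 97.6 and then to 139.8 FPKM. Cytokines without PM10 lowered 5 of the 10 and raised 3, beside 30.3% and 25.9% of all genes. PM10 in inflamed hIECs lowered 7 of the 10 and raised 1, LUM, beside 9.02% and 6.22%. Interaction calls were 5 lower and 1 higher, beside 4.48% and 2.11%. The summed level of the 5 smooth muscle markers was 1699 and 1573 FPKM in normal hIECs and 1287 and 1312 with PM10. It was 2441 and 2478 FPKM in inflamed hIECs and 2470 and 2493 with both, with MYH11 at 0 throughout. PM10 in normal hIECs changed ACTA2 by -0.36, TAGLN by -0.31 and CNN1 by -0.28. These were 3 of the 4 tested, where 3.72% of all genes were called lower. The same 3 had higher interaction calls, beside 2.11% of all genes. Of the 9 epithelial markers, 3 passed the filter. KRT8 changed with cytokines by -0.82 and KRT18 by -0.99, and KRT19 was not called (-0.38, limma adjusted p = 0.192). The summed level of the 9 was made up almost wholly of KRT8 and KRT18. It was 598 to 652 FPKM in the 4 normal libraries and 287 to 352 FPKM in the 4 inflamed ones. Of the neuronal markers STMN2 fell with cytokines from 118 to 53.2 FPKM and TUBB3 from 59.8 to 49.0, where 30.3% of all genes were called lower. DCX, which reached 1 FPKM only in normal libraries, had means of 2.46 FPKM in normal and 0.308 in inflamed hIECs. The summed level of the 4 neuronal markers was 177 to 201 FPKM in the normal libraries and 102 to 121 FPKM in the inflamed ones. Of the 2 intestinal markers tested, SOX9 fell from 14.2 to 3.92 FPKM and LGR5 rose from 2.32 to 5.47. The part of these markers in the elastic fibre results was not tested. Genes of mitochondrial DNA took 15.5% to 24.2% of the FPKM sum per library, and rescaling without them changed none of the calls of the 10 genes.

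The genes most like ELN over the 8 libraries, by Pearson correlation of log2(FPKM + 1), included DHRS3 (r = 0.9992), PCOLCE (0.998), SLC7A3 (0.998) and ISLR (0.998). DHRS3, a retinaldehyde reductase, had 60.4 and 73.4 FPKM in normal hIECs, 43.1 and 41.8 with PM10, 8.61 and 8.30 in inflamed hIECs, and 2.23 and 2.27 with both. For FBN1 they were TAGLN (0.999), MELK (0.999), F2RL2 (0.999), TPX2 (0.998) and GLIPR1 (0.998). For LOX they were CDK1 (0.988), MYBL2 (0.986), TTC21B (0.986), FAR2 (0.982) and DPYSL2 (0.982). The 8 libraries share the 4 treatments, so these values describe a shared order of groups and carry no p-value.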

How the data were processed

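The 8 RNA-seq libraries cover normal and inflamed hIECs, each without and with PM10, in duplicate. The authors selected poly-A RNA for unstranded libraries, trimmed reads with Cutadapt 3.7 and Sickle 1.33, aligned them to GRCh38 with HISAT2 2.2.1 and ran StringTie 2.2.0 for abundance. Its FPKM, as deposited for every gene in every library, was used without further scaling. The annotation release is not given in the sources used here. Of the gene identifiers, 99.5% were found in GENCODE release 44, used for positions and overlaps.

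FPKM holds no read counts, so no count test was run. The depth is unknown, and the lowest value above 0 (0.164 to 0.228 FPKM) limits precision for ELN with both treatments. The linear model of limma 3.58.1 under R 4.3.3, whose eBayes step let the variance follow mean expression, took log2(FPKM + 1) of all 8 libraries. This scale makes changes of low genes look smaller. A gene needed 1 FPKM or more in at least 2 libraries, which 14206 did. The script was tested on simulated data. With 2 libraries a group, 4 residual degrees of freedom remained. Comparisons were PM10 in normal and in inflamed hIECs, cytokines without and with PM10, and their interaction, adjusted within each by the Benjamini-Hochberg method.

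The 10 genes and all lists were chosen with earlier results of these data known. Named besides are up to 4 genes per list with the largest called, non-overlapping cytokine change, genes of the elastic fibre lists with an interaction call, and the 5 genes most like ELN, FBN1 and LOX, of which 1 is not reported here. Other marker genes were named after their values were seen. Alternatives were a pseudocount of 0.1, no filter, a mean of at least 5 FPKM, median centring, quantile normalization, rescaling without genes of mitochondrial DNA, no trend, a replicate block, only the groups compared, and each library left out. Python 3.11.15 with pandas 2.3.3 and matplotlib 3.10.9 made the tables and plots.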

Additional observations from a re-analysis of the deposited data

Results flagged for a closer look

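With all 8 libraries in the fit and a pseudocount of 1, the effect of PM10 differed between inflamed and normal hIECs by the interaction test for 4 elastic fibre genes. Only MFAP4 kept this call under every alternative. The difference (log2 change in inflamed minus log2 change in normal hIECs) was -1.57 for MFAP4, -0.93 for ELN, 0.43 for FBN1 and 0.30 for LOXL1, with limma adjusted p-values of 0.0011, 0.0351, 0.0387 and 0.0485. With a pseudocount of 0.1 in place of 1, ELN was at -1.90 and MFAP4 at -1.58. Groups of 2 libraries are too small for a test of outlying samples.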

How the results depend on the processing

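The cytokine calls of the 10 genes, without and with PM10, kept their direction under all 17 alternatives, and FBLN5 under quantile normalization was the only call lost. Of 840 values of single genes under an alternative, 763 kept direction and side of the threshold, 54 lost a call, 14 gained one and 9 changed sign. The cause of these changes was not tested.

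Only the 4 normal libraries in the fit took the PM10 calls in normal hIECs from 7 to 0 elastic fibre genes (7 at an unadjusted p-value under 0.05), from 11 to 0 related genes (14 unadjusted), and from 1311 to 23 of all genes, with limma. Interaction calls of elastic fibre genes went from 4 to 1 with no filter and 2 with no trend, and of related genes from 14 to 9 with no filter, 7 with no trend and 8 with the replicate block. The median change of the 10 genes went to -0.50 under median centring for PM10 in normal hIECs, to -0.34 under quantile normalization for cytokines without PM10, to -0.58 under median centring and -0.54 under quantile normalization for cytokines with PM10, and to 0.041 under median centring for the interaction. The interaction of ELN, -0.93 with a pseudocount of 1, was -1.90 with 0.1 and -1.54 after rescaling without genes of mitochondrial DNA, which raised all values against the pseudocount. With a mean of at least 5 FPKM, fewer genes were tested and 4931 and 5551 were called for cytokines without and with PM10. Counts of related genes, here and with libraries left out, are over all related genes tested. They include those that reached 1 FPKM only in normal or only in inflamed libraries.

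With each library left out, elastic fibre genes called ranged from 1 to 8 for PM10 in normal hIECs, 3 to 8 for PM10 in inflamed hIECs and 1 to 6 for the interaction, with 10 in every case for both cytokine comparisons. The median for PM10 in normal hIECs ranged from -0.45 to -0.38. Related genes called ranged from 4 to 18, 10 to 25 and 2 to 16 in the same order. Calls over all genes ranged from 194 to 2627 for PM10 in normal hIECs, 675 to 2992 for PM10 in inflamed hIECs and 263 to 1266 for the interaction.

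Changes of sign all concerned changes that were not called. For PM10 in normal hIECs, MFAP4 was at -0.027 under median centring and, with a library left out, between -0.066 (without the first normal library) and 0.12, and EMILIN1 between -0.13 and 0.021 (without the second). For PM10 in inflamed hIECs, FBN1 was at 0.010 after rescaling without genes of mitochondrial DNA, and LOXL1 at 0.015 in that setting, 0.020 under quantile normalization, and between -0.046 and 0.025 with a library left out (0.025 without the second inflamed library, 0.011 without the second inflamed library with PM10). The interaction of FBLN1 ranged from -0.024 (without the second normal library) to 0.14.

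The share of higher genes among all calls for PM10 in normal hIECs was 59.7%, and 42.9% under median centring and 75.1% after rescaling without genes of mitochondrial DNA. For the interaction it was 32.0%, and 45.7% under median centring and 46.6% under quantile normalization. Libraries with the same replicate number did not deviate together (r between -0.0015 and 0.079), so the numbers were not taken as pairs. With the replicate block, 4 elastic fibre genes called for the interaction became 3, since LOXL1 had a limma adjusted p = 0.0613, and no other call of the 10 genes changed.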
